A study of Mus musculus with 7 samples.

Results

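Macrophages that met muramyl dipeptide (MDP) a second time were compared with macrophages that met it for the first time, over every gene the arrays could name. The comparison uses 2 of the 7 arrays of the series, 1 per condition, and covers all 18193 genes with a probe set of their own, each read from its brightest one. MDP is a fragment of the bacterial cell wall, and Pam3CSK4 is a synthetic bacterial lipopeptide. The cells were mouse macrophages grown from bone marrow, whose strain the labels do not give. They were kept for 24 h without a ligand (naive cells), with MDP or with Pam3CSK4, and then for 3 h without a ligand, with MDP or with Pam3CSK4. Doses are written in the labels as 10 mg/ml for MDP and 1 mg/ml for Pam3CSK4, and whether that unit is meant or is a slip for a smaller one could not be checked. The second-MDP array comes from cells given MDP in both periods, and the first-MDP array from naive cells given MDP in the last 3 h. The other arrays used beside them are naive unstimulated cells, naive cells given Pam3CSK4, MDP-pretreated cells given Pam3CSK4, and Pam3CSK4-pretreated cells given either ligand. Every label carries the replicate number 2.

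MDP is sensed inside the cell by a receptor of the NOD-like family, which switches on the transcription factor NF-kB and kinases of the MAP kinase family through an adaptor kinase. Macrophages that have been through one round of such signalling often answer the next one less strongly, a state called tolerance. Genes of inflammation and genes of antimicrobial defence need not follow the same course in tolerant cells, so the members are described by role.

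Values are log2 expression, so that a difference of 1.00 is 2-fold, and every difference is the second-MDP value minus the first-MDP value unless said otherwise. Each difference rests on 1 array against 1 and has no replicate check. Precision is limited by the number of arrays, and the spread between cultures is unknown. No array shows MDP-pretreated cells left without a second ligand, so a level that remained from the first exposure and a response to the second cannot be told apart. A value under its array's median, which lay between 5.48 and 5.55 on the 7 arrays, is said to be there where it is printed. Array medians of the first-MDP and second-MDP arrays were 5.55 and 5.48, and the median difference over all genes was -0.01.

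Most genes stood at nearly the same level after a second MDP as after a first. Of the 18193 genes, 17577 (96.6%) lay within 1.5-fold. At least 2-fold higher after the second MDP were 70 genes, 0.385% of those compared, and 53 genes (0.291%) were at least 2-fold lower. At 3-fold the counts were 8 higher and 11 lower. The threshold of 2-fold is the one the study's design uses for tolerized genes, and it passes through a continuous range. The protease gene Plau was the least of the higher genes at 1.00, and Cenpk, at 0.9974, was the first gene short of it. On the other side, the phosphodiesterase gene Pde4b was the least of the lower genes at -1.0013 and Maff, at -0.9998, just missed.

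**Figure D1:**
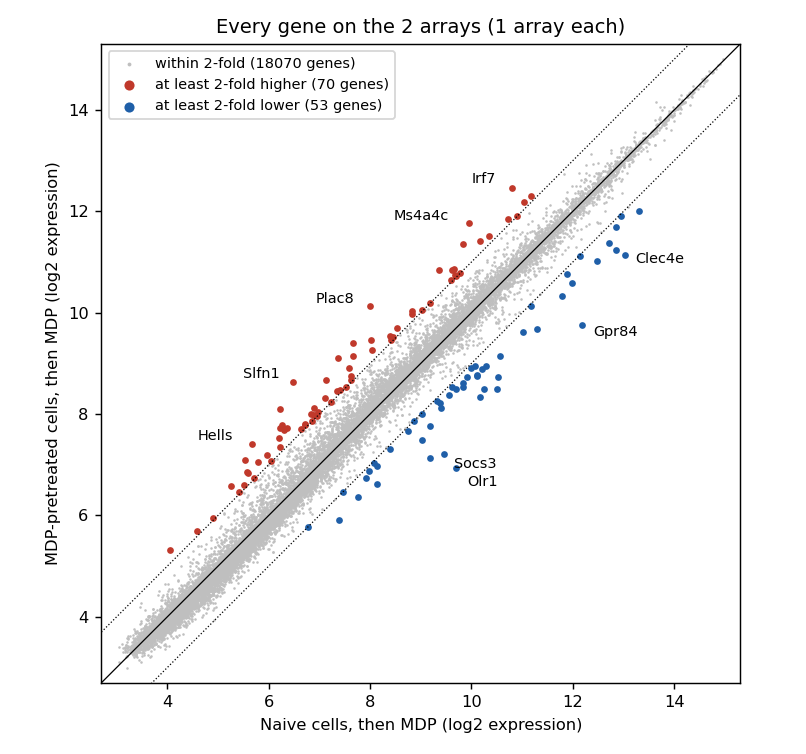
Expression of 18193 genes on the first-MDP array (horizontal axis, log2) against the second-MDP array (vertical axis, log2), 1 array each, with dotted lines at 2-fold. The 70 genes at least 2-fold higher after the second MDP lie between 4.05 and 11.18 on the first-MDP array, with Slfn1 and Plac8 farthest above the lines, and the 53 lower genes include Olr1, Gpr84 and Socs3.

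Of the 53 lower genes 31 belong to one of the 45 gene lists, among them receptors, costimulatory molecules, NF-kB components and mediators of inflammation. The median level of the 53 was 8.07 in unstimulated cells, 9.91 after a first MDP and 8.53 after a second. In naive cells given Pam3CSK4 it was 11.3. These arrays are shared between the comparisons, so the levels are given side by side and no overlap is drawn from them. The 40 genes at least 3-fold higher after a first MDP than in unstimulated cells (0.220% of all genes, the study's own threshold for induction) had median levels of 7.55 in unstimulated cells, 9.79 after a first MDP and 8.51 after a second.

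Among receptors at the cell surface, the widest gap was in Olr1, which encodes a scavenger receptor for oxidized lipoprotein. Olr1 was at 6.25 in unstimulated cells, 9.70 after a first MDP and 6.94 after a second, a difference of -2.75. With Pam3CSK4 it was at 10.83 in naive and 10.59 in MDP-pretreated cells, and Pam3CSK4-pretreated cells had 7.93 with MDP and 7.71 with Pam3CSK4. For this gene cells given MDP before MDP were 0.69 above unstimulated cells, and cells given MDP before Pam3CSK4 were 4.34 above them. Gpr84, a receptor for medium-chain fatty acids, was at 8.92 unstimulated, 12.18 after a first MDP and 9.75 after a second (-2.43), and at 13.24 and 13.34 with Pam3CSK4 in naive and MDP-pretreated cells. Clec4e, the C-type lectin also known as Mincle, was at 9.93, 13.03 and 11.13 on the first 3 of these arrays (-1.89). Tlr2, the receptor that senses Pam3CSK4 at the cell surface, was at 11.20 unstimulated, 13.30 after a first MDP and 12.01 after a second (-1.29). Of the 21 measured C-type lectins and scavenger receptors, Olr1 and Clec4e were the members past 2-fold and the list's median was -0.02, so the 2 genes stood apart from their list.

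Genes that restrain or transmit NF-kB and cytokine signals formed another part of the lower set. Socs3, a feedback inhibitor of cytokine receptors, was at 6.63 in unstimulated cells, 9.45 after a first MDP and 7.21 after a second (-2.24). Its level with Pam3CSK4 was 13.43 in naive cells and 13.47 after MDP pretreatment. Of 12 measured NF-kB subunits and inhibitors, 10 lay below 0, with a median of -0.35. At least 2-fold lower were 3 (25.0%, against 0.291% of all genes), and none was 2-fold higher. The inhibitor gene Nfkbie was at 11.29 after a first and 9.68 after a second MDP (-1.61), against 9.02 in unstimulated cells. The subunit genes Relb and Nfkb2, which act in the noncanonical branch of the pathway, differed by -1.31 and -1.23, with Nfkb2 short of 2-fold at -0.88 when its probe sets were averaged. Nfkbia, the classical inhibitor, was at 13.79 after the first and 13.40 after the second MDP (-0.38), and Tnfaip3, which encodes the deubiquitinating protein A20, was at 11.44 and 10.89 (-0.56). Tnip1, whose product binds A20, was at 12.14 and 11.11 (-1.03), and the adaptor gene Traf1 at 7.93 and 6.74 (-1.19), which was -0.83 with averaged probe sets and -0.99 with 32 added to the linear values.

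**Figure D2:**
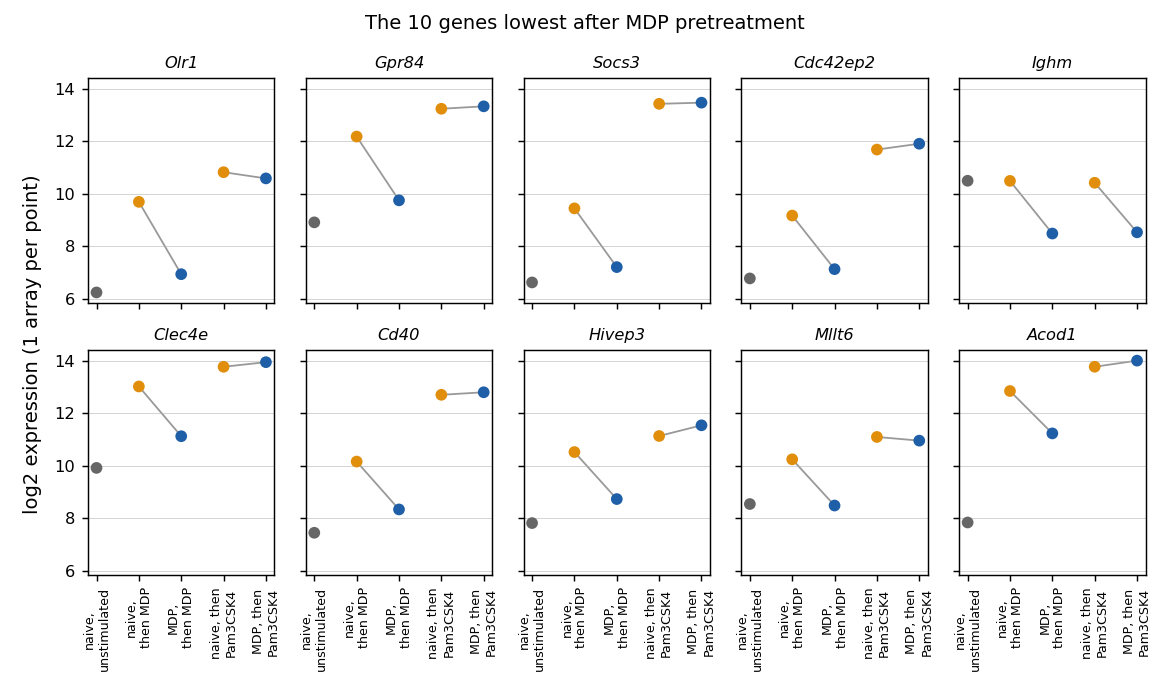
Expression (log2, 1 array per point) of the 10 genes with the lowest difference on 5 arrays, with lines joining naive to MDP-pretreated cells given the same ligand. In 9 of the 10 genes the line falls for MDP and is near level for Pam3CSK4, where the difference lies between -0.24 and 0.41, while Ighm falls in both pairs.

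Surface molecules that macrophages show to T cells had 5 lower members out of 19 measured (26.3%, against 0.291% of all genes). None was higher, and the list median was -0.13. Cd40, the receptor for the T cell ligand CD154, was at 7.45 in unstimulated cells, 10.17 after a first MDP and 8.34 after a second (-1.82). Icosl, a ligand of the costimulatory receptor ICOS, was at 9.03 and 7.49 (-1.54), but at -0.77 when its probe sets were averaged. The maturation marker Cd83 was at 11.79 and 10.32 (-1.47), the adhesion molecule Icam1 at 12.47 and 11.01 (-1.46) and the early activation marker Cd69 at 9.17 and 7.76 (-1.41). After the second MDP, Cd83 (10.18 unstimulated) and Icosl (7.26 unstimulated) were within 0.25 of the unstimulated array, and Cd69 (6.42 unstimulated) was not. The death receptor gene Fas was at 6.51 unstimulated, 8.14 after a first MDP and 6.62 after a second (-1.52).

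Of 23 measured cytokine genes 15 exceeded the array median on either array of the pair. Of the 23, 16 lay below 0 and the median was -0.26. None was at least 2-fold higher, and 1 was at least 2-fold lower (4.35%, against 0.291% of all genes). That gene was Il1a, which encodes interleukin-1 alpha, at 4.79 (under the array median) in unstimulated cells, 7.38 after a first MDP and 5.92 after a second (-1.46). Il1b, encoding interleukin-1 beta, was at 9.73 and 8.83 (-0.90) and Tnf at 10.23 and 9.43 (-0.80), both short of the threshold. Il10, an anti-inflammatory cytokine, was at 7.51 and 7.56. Il6 and Il12b were under the median on both arrays, so no difference is given for them.

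Of 23 measured chemokine genes 3 were lower (13.0%, against 0.291% of all genes) and 1 was higher (4.35%, against 0.385%). Cxcl3, a chemoattractant of neutrophils, was at 6.43 unstimulated, 10.11 after a first MDP and 8.78 after a second (-1.34). Cxcl10, which attracts T cells, was at 9.78, 12.70 and 11.38 (-1.32), and Ccl24, which attracts eosinophils, at 7.15, 7.47 and 6.47 (-1.01, or -0.80 with 32 added to the linear values). In the opposite direction Ccl5, another T cell chemoattractant, was at 7.99 unstimulated, 10.17 after a first MDP and 11.42 after a second (1.25). Ccl5 was thus above the unstimulated level on both MDP arrays, and further above it on the second-MDP array. It reached 12.86 and 13.66 with Pam3CSK4 in naive and MDP-pretreated cells. Cxcl2 was at 10.95 and 10.02 (-0.92), Ccl3 at 11.50 and 11.15 (-0.35) and Ccl2 at 13.71 and 13.75 (0.04).

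Metabolic and effector genes in the lower set included Acod1, the enzyme that makes itaconate from a citric acid cycle intermediate. Acod1 was at 7.85 in unstimulated cells, 12.85 after a first MDP and 11.24 after a second (-1.61), so that it stayed far above the unstimulated level. The amino acid transporter gene Slc7a2, which supplies arginine, was at 5.58, 7.76 and 6.37 (-1.39, or -0.94 with averaged probe sets), the mitochondrial superoxide dismutase Sod2 at 11.53, 12.85 and 11.69 (-1.15), and Ch25h, the enzyme that makes 25-hydroxycholesterol, at 8.85, 9.91 and 8.72 (-1.18). Arg1, the arginase of alternatively activated macrophages, stood the other way at 5.67, 5.79 and 7.06 (1.27). It was at 5.82 and 5.83 with Pam3CSK4 in naive and MDP-pretreated cells and at 11.13 in Pam3CSK4-pretreated cells given MDP. Its difference was 0.92 with 32 added to the linear values, which shrinks changes of dim genes.

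Other genes near the bottom of the ranking have other roles. Cdc42ep2, an effector of the small GTPase Cdc42, was at 6.78 unstimulated, 9.18 after a first MDP and 7.13 after a second (-2.04). Hivep3, a zinc finger transcription factor, was at 7.82, 10.53 and 8.74 (-1.79), but at -0.46 when its probe sets were averaged. Mllt6, a chromatin-associated protein, was at 8.55, 10.25 and 8.49 (-1.76), and at -0.92 averaged.

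Promoter letters are shown for 3 of the lower genes because NF-kB acts downstream of MDP, and for members of the higher groups described below. Sequences are from RefSeq on the mouse build GRCm38.p6, where 14452 of the 18193 genes had a promoter window, and the 250 bases before each annotated start were searched on both strands. The NF-kB motif was written as GGGA, any 2 bases and TTCC, and capitals mark it in these stretches, given 5′ to 3′ on the gene's strand.
Cxcl3, chr5:90786009-90786058, + strand: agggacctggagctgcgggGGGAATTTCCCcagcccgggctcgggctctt
Cxcl10, chr5:92349019-92349068, - strand: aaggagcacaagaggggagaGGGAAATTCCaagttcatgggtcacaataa
Nfkb2, chr19:46305685-46305734, + strand: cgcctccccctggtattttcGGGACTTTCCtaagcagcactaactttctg
In Cxcl3 the capitals hold overlapping matches on both strands. The motif was in the window of 3 of the 41 lower genes that had one (7.32%), against 1.41% of all 14452 genes. It was also in 2 of the 54 higher genes with a window (3.70%) and in 2 of 24 members of the antiviral interferon-stimulated list (8.33%), so its share was not highest among the lower genes. These are all 3 of the lower genes with such a match, and 38 lower genes had none in this window.

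Genes that Pam3CSK4 changed in naive cells, chosen on arrays outside the comparison, lay mostly on opposite sides. At least 3-fold higher in naive cells given Pam3CSK4 than in unstimulated cells were 232 genes. Of these, 46 (19.8%, exact 95% binomial interval over genes 14.9 to 25.5) were at least 2-fold lower after the second MDP, against 0.291% of all genes. At least 2-fold higher were 2 (0.862%, against 0.385% of all genes). Of the 232, 197 lay below 0, as did 9375 of all 18193 genes. Their median difference was -0.48, beside -0.01 over all genes, and their median level was 7.59 unstimulated, 8.73 after a first MDP and 8.16 after a second. At least 3-fold lower with Pam3CSK4 were 110 genes. Of these, 12 (10.9%, interval 5.77 to 18.3) were at least 2-fold higher after the second MDP, against 0.385% of all genes. None of the 110 was 2-fold lower, and 108 lay above 0. Their median level was 9.49 unstimulated, 8.76 after a first MDP and 9.53 after a second, with a median difference of 0.53. Intervals cover counting over genes and not the spread between cultures. They treat genes as independent, which genes read on the same arrays need not be, so they can be too narrow.

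The higher genes included interferon-stimulated genes and genes of DNA replication and mitosis. Of the 70, 10 belong to the lists of antiviral interferon-stimulated genes, interferon-related transcription factors, or guanylate binding and immunity related GTPases, and 7 to the lists of replication and mitosis genes. Of the 53 lower genes 1, Irf1, belongs to the interferon lists and none to the lists of replication and mitosis. These counts cover list members only, and lower genes outside the interferon lists include Cxcl10 (-1.32) and Ifi27 (-1.13). The whole higher set had median levels of 7.58 unstimulated, 7.35 after a first MDP and 8.58 after a second.

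Of 35 measured antiviral interferon-stimulated genes, 8 were at least 2-fold higher after the second MDP (22.9%, against 0.385% of all genes). None was 2-fold lower and 28 lay above 0, as did 7866 of all 18193 genes. The list's median difference was 0.37. Its median level was 9.95 in unstimulated cells, 10.93 after a first MDP and 11.01 after a second. Taken gene by gene, the first-MDP array was above the unstimulated one by a median of 0.66. Slfn1, a Schlafen family gene, was highest of all genes at 5.71 in unstimulated cells, 6.48 after a first MDP and 8.63 after a second (2.15). With Pam3CSK4, Slfn1 was at 6.87 in naive and 9.46 in MDP-pretreated cells, and it was at 10.97 and 11.06 in Pam3CSK4-pretreated cells given MDP or Pam3CSK4. All 4 pretreated arrays thus lay above all 3 naive arrays for this gene. Its relative Slfn4 was at 7.32 unstimulated, 7.67 after a first MDP and 9.40 after a second (1.72). Irf7, the transcription factor that drives late type I interferon genes, was at 10.73 unstimulated and 10.79 after a first MDP, and at 12.46 after a second (1.67). Its levels with Pam3CSK4 were 10.81 in naive and 12.54 in MDP-pretreated cells. A first exposure to either ligand for 3 h thus left Irf7 within 0.10 of the unstimulated array, and both MDP-pretreated arrays stood above it.

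Enzymes and sensors of antiviral defence made up most of the other interferon-stimulated members past 2-fold. Oas3, which makes the second messenger that activates RNase L, was at 9.22 unstimulated, 9.36 after a first MDP and 10.84 after a second (1.49). The exonuclease gene Isg20 was at 7.74, 8.03 and 9.46 (1.43), the nucleic acid sensor Zbp1 at 9.39, 9.65 and 10.86 (1.21), the ubiquitin ligase family gene Herc6 at 8.49, 8.82 and 10.03 (1.21), Oasl2 at 10.82, 11.18 and 12.31 (1.12) and the RNA helicase Dhx58 at 9.87, 9.70 and 10.71 (1.02). The 3 probe sets of Dhx58 that exceeded the array median ranged from 0.12 to 1.25, with a mean of 0.80, short of 2-fold. Ddx60, a helicase outside the list, was at 7.34, 7.13 and 8.67 (1.54). Gbp6, a guanylate binding protein of cell-autonomous defence, was at 6.68 unstimulated, 7.67 after a first MDP and 9.14 after a second (1.47). Ifi213, a member of the interferon-inducible PYHIN family, was at 5.84, 6.22 and 8.10 (1.88).

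By its median, the antiviral list stood above the unstimulated level after a first MDP, and so did its members Ifit1 and Mx1. Neither gene was 2-fold higher after a second. Ifit1 was at 10.70 unstimulated, 12.50 after a first MDP and 11.77 after a second (-0.73), and Mx1 was at 8.52, 9.76 and 9.85 (0.10). With Pam3CSK4 the same genes were higher in pretreated cells, Ifit1 at 12.20 naive and 13.03 pretreated and Mx1 at 9.77 and 10.90. Irf1, an early interferon and NF-kB responsive factor, was at 9.74 unstimulated, 11.18 after a first MDP and 10.14 after a second (-1.04). Ifnb1, the interferon beta gene, was at 5.31, 5.59 and 5.10, under the median on the unstimulated and second-MDP arrays.

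Antigen presentation genes lay mostly above 0 without passing the threshold. All 13 measured genes of MHC class I and the immunoproteasome were above 0, with a median of 0.29, and 9 of 11 of MHC class II presentation, with a median of 0.20. The invariant chain gene Cd74 was at 10.81 after a first and 11.23 after a second MDP (0.42), and the peptide transporter Tap1 at 9.60 and 10.04 (0.43).

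Interferon response element letters are shown for 3 of the higher genes. The element was written as GAAA, any 2 bases and GAAA again, and capitals mark it.
Oas3, chr5:120777705-120777754, - strand: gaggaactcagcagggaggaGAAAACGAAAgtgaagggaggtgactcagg
Ifi213, chr1:173599316-173599365, - strand: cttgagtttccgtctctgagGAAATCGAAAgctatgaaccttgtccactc
Ddx60, chr8:61928048-61928086, + strand: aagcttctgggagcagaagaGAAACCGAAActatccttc
It lay within the window of 5 of the 54 higher genes that had one (9.26%), against 3.13% of all genes and 1 of 41 lower genes (2.44%). Of these 5 genes Oas3 alone belongs to the interferon lists, and Cytip, outside them, is another of the 5. No match was found for Slfn1, Slfn4, Irf7 or the other higher members of those lists. Which of them had a window is not given here, so some may not have been searched. Of 24 antiviral list members with a window 9 held it (37.5%), whether or not they differed between the arrays. The lower gene with the element was Cxcl10, which also held the NF-kB motif shown above. The 3 stretches place the element 75, 73 and 19 bases before the start of Oas3, Ifi213 and Ddx60.

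**Figure D3:**
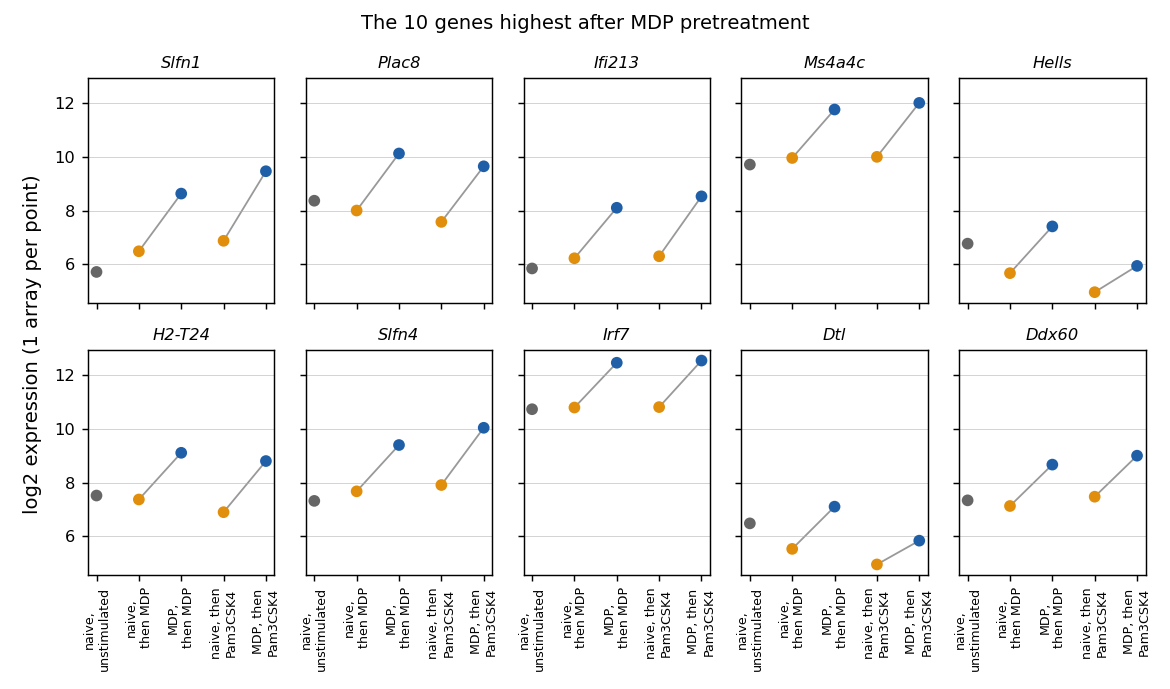
Expression (log2, 1 array per point) of the 10 genes with the highest difference on 5 arrays, with lines joining naive to MDP-pretreated cells given the same ligand. In Slfn1, Plac8, Ifi213, Ms4a4c, H2-T24, Slfn4, Irf7 and Ddx60 the line rises by more than 1 in both pairs, and in Hells and Dtl, genes of dividing cells, by 1.74 and 1.57 with MDP and by 0.98 and 0.89 with Pam3CSK4.

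Replication and mitosis genes stood above 0 as whole groups. Of 27 measured genes of DNA replication and S phase, all 27 were above 0, with a median of 0.63. At least 2-fold higher were 5 of them (18.5%, against 0.385% of all genes). All 28 measured genes of mitosis and the G2/M phase were above 0 as well, with a median of 0.72. Of these, 2 (7.14%) were at least 2-fold higher. Over all genes 7866 of 18193 were above 0. The median level of the S phase list was 8.64 in unstimulated cells, 8.52 after a first MDP, 8.70 after a second and 8.25 in naive cells given Pam3CSK4. For the mitosis list the levels were 8.80, 8.71, 9.41 and 8.52. Taken gene by gene, the second-MDP array was above the unstimulated one by a median of 0.46 for S phase and 0.63 for mitosis.

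The cyclin gene Ccne2, which drives entry into S phase, was at 7.17 in unstimulated cells, 6.25 after a first MDP and 7.79 after a second (1.53). Cdc6, which loads the replicative helicase, was at 7.12, 6.23 and 7.73 (1.498), with 5.13 (under the array median) and 5.50 in Pam3CSK4-treated naive and MDP-pretreated cells. Both genes were lower on the first-MDP array than on the unstimulated one and above it on the second-MDP array. The helicase subunit Mcm5 was at 9.52, 9.18 and 10.20 (1.01), the primase subunit Prim1 at 7.47, 7.24 and 8.24 (1.01), and the ribonucleotide reductase subunit Rrm2 at 9.24, 9.01 and 10.05 (1.04). Mcm5 and Rrm2 were near the threshold and fell short of it in 3 and 4 of the other settings, Mcm5 at 0.98 with cyclic loess, 0.78 with averaged probe sets and 0.976 with 32 added, and Rrm2 between 0.88 and 0.9971. In mitosis, the kinase gene Ttk of the spindle checkpoint was at 7.08, 6.71 and 7.78 (1.07) and the cytokinesis factor Ect2 at 7.86, 7.41 and 8.47 (1.07, or 0.94 with 32 added). Kif11, a spindle motor, was at 6.83 after a first and 7.83 after a second MDP, a difference of 0.997 that missed 2-fold as deposited and passed it with the arrays centred on housekeeping genes (1.0030).

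For several genes of dividing cells the difference depended on which probe sets were read. Hells, a chromatin remodelling helicase, was at 5.67 and 7.41 (1.74) on its brightest probe set and at 0.67 averaged over all of them, and Dtl, an adaptor of replication-coupled protein degradation, was at 1.57 and 0.24 by the same measures, with its first-MDP value under the array median. The mean was 0.62 for Fignl1 against 1.33, 0.55 for Ttk against 1.07, and 0.28 for the retinoblastoma relative Rbl1 against 1.13. In Dtl, Fignl1, Ttk and Rbl1 only 1 probe set exceeded the array median on either array, so these means include dim probe sets. Ncapd3, a condensin subunit, was at 1.38 on a probe set whose name marks it as less specific, and at -0.10 without such probe sets. The list medians moved less. They lay between 0.59 and 0.73 for S phase and between 0.59 and 0.74 for mitosis over the settings tried.

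Letters are shown for Cdc6 and Mcm5 because E2F factors drive S phase genes. Their motif was written as TTTNNCGC, and capitals mark it on either strand, with overlapping matches in Mcm5.
Cdc6, chr11:98907993-98908040, + strand: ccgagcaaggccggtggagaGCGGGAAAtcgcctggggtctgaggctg
Mcm5, chr8:75109340-75109387, + strand: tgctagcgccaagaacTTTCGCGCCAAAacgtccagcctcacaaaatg
The motif was found in 11 of 54 higher genes with a window (20.4%), in 3 of 41 lower genes (7.32%) and in 6.94% of all genes. Of 22 S phase genes with a window 7 held it (31.8%), and of 25 mitosis genes 1 did (4.0%). None of the 16 genes with a window that were 2-fold higher also in the Pam3CSK4 pair described next held it, while 11 of the other 38 did (28.9%). The interferon response element was in 3 of the 16 (18.8%) and 2 of the 38 (5.26%), and the NF-kB motif in 2 (12.5%) and 0. This split rests on the 2-fold line, and whether the groups differ was not tested.

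Whether MDP pretreatment left the same mark before another ligand was read from MDP-pretreated cells given Pam3CSK4 minus naive cells given Pam3CSK4, arrays that take no part in the MDP pair. In that Pam3CSK4 pair the threshold was passed by 54 genes upward (0.297%) and by 4 downward (0.022%). Of the 70 genes higher after a second MDP, 19 were also 2-fold higher there, which is 27.1% of the 70 (exact 95% binomial interval over genes 17.2 to 39.1) and 35.2% of the 54. Above 0 were 66 of the 70, against 47.9% of all genes, and their median was 0.74. Of the 53 lower genes, 1 was also 2-fold lower there, 1.89% of the 53 and 25.0% of the 4. That gene was Ighm. The median of the 53 in the Pam3CSK4 pair was 0.17, 42 of them lay within 1.5-fold, and 40 were above 0. The genes lower after a second MDP were thus at about the level of naive cells when the second ligand was Pam3CSK4, where the median level was 11.3 in naive and 11.4 in MDP-pretreated cells.

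**Figure D4:**
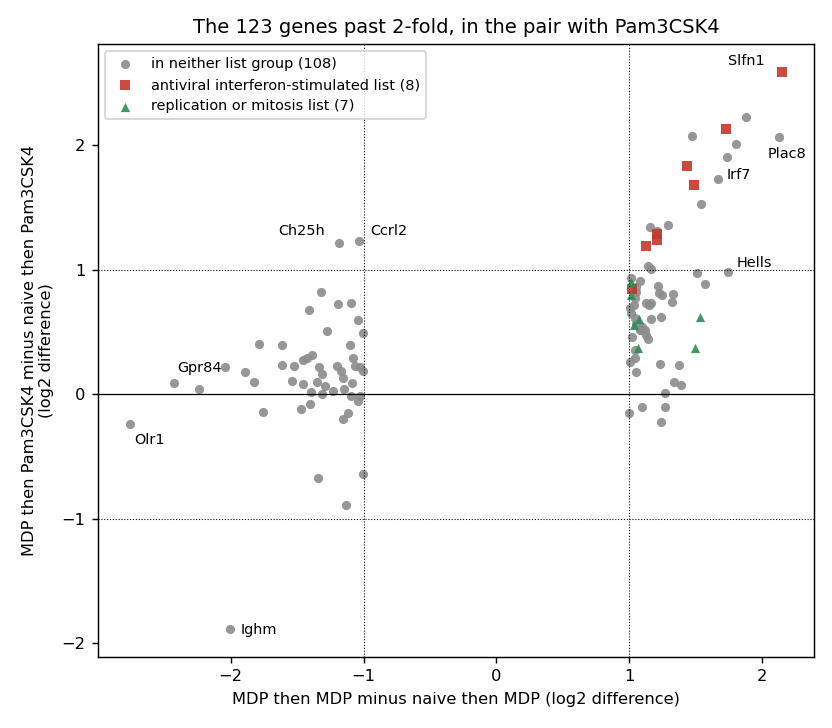
Difference between MDP-pretreated and naive cells with MDP as the second ligand (horizontal axis, log2) against the same difference with Pam3CSK4 (vertical axis, log2) for the 123 genes past 2-fold with MDP, which alone sets the empty band in the middle. The 53 lower genes lie around a median of 0.17 on the vertical axis, with Ighm farthest below at -1.89, and interferon-stimulated members such as Slfn1 reach 2.59 while replication and mitosis members stay under 1.

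Interferon-stimulated genes were among those past 2-fold in both pairs. In the Pam3CSK4 pair 15 of the 35 antiviral genes were 2-fold higher, against 0.297% of all genes. Their list's median was 0.82 there, beside 0.37 in the MDP pair. Slfn1 was at 2.59 there, Slfn4 at 2.13, Isg20 at 1.84, Irf7 at 1.73 and Oas3 at 1.68. None of the 27 S phase or 28 mitosis genes was 2-fold higher there, with medians of 0.43 and 0.57. Ccne2 was at 0.62 in the Pam3CSK4 pair and 1.53 in the MDP pair, and Cdc6 at 0.37 and 1.498. Chemokines and cytokines had medians of 0.29 and 0.27 in the Pam3CSK4 pair, beside -0.28 and -0.26 in the MDP pair. Whether the pairs differ was not tested, since each has 1 array a side.

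Some of the highest genes belong to no list. Plac8, a gene of myeloid cells, was at 8.37 unstimulated, 8.001 after a first MDP and 10.13 after a second (2.12), and at 7.58 and 9.65 with Pam3CSK4 in naive and MDP-pretreated cells. Ms4a4c, of the family of membrane proteins that includes CD20, was at 9.71, 9.96 and 11.76 (1.80), and the class I-like gene H2-T24 at 7.51, 7.37 and 9.11 (1.74). These 3 were more than 2-fold higher in both pairs. Gpr171, a G protein-coupled receptor, was at 7.23, 6.30 and 7.69 (1.39) and at 7.01 and 7.08 with Pam3CSK4, so its gap was seen with MDP as the second ligand and was 0.07 with Pam3CSK4. Cytip, which regulates cell adhesion, was at 10.81, 9.84 and 11.35 (1.51), and at 8.68 and 9.66 with Pam3CSK4.

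Few genes stood below the unstimulated level after a second MDP. There were 7 genes at least 2-fold below it, namely Slc16a12, Ighm, Lifr, Tox2, Hpgd, Ifi27 and Bex1, of which Slc16a12 and Bex1 were under the array median on both arrays of the pair. Ighm, the immunoglobulin mu heavy chain, was at 10.50 in unstimulated cells, 10.50 after a first MDP and 8.49 after a second (-2.00), and at 10.42 and 8.54 with Pam3CSK4 in naive and MDP-pretreated cells. Its levels in Pam3CSK4-pretreated cells were 7.87 and 7.73, so all 4 pretreated arrays lay below all 3 naive ones. The mean over its 11 probe sets, most of them dim, gave -0.51. Ifi27 was at 11.89, 11.89 and 10.76 (-1.13) and at 11.70 and 10.80 with Pam3CSK4. Hpgd, the enzyme that breaks down prostaglandins, was at 7.04, 6.46 and 5.71 (-0.75), and Lifr, the receptor of leukaemia inhibitory factor, at 7.55, 7.06 and 6.13 (-0.93). In the other direction, 43 genes were at least 2-fold above unstimulated after a second MDP but not after a first, among them Slfn4, Irf7, Ifi213 and Ms4a4c.

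The MDP receptor itself and its adaptor kinase are not analysed here. Of 30 listed components of MDP sensing and of its signalling chain 26 were measured, none of these was past 2-fold in either direction, and their median was -0.01. Those farthest from 0 were Birc3, a ubiquitin ligase of the chain, at 11.22 after a first and 10.45 after a second MDP (-0.77), and Nod1, a sensor related to the MDP receptor, at 8.63 and 7.99 (-0.64). Traf2 was at 8.84 and 8.46 (-0.37), and Slc15a3, a peptide transporter of the endolysosome, at 13.15 and 13.17 (0.02). Among 25 feedback inhibitors of cytokine and receptor signalling Socs3 and Tnip1 were the lower ones (8.0%, against 0.291% of all genes) and none was higher. The kinase-like regulator Irak3, often described in tolerant macrophages, was at 8.97 and 8.60 (-0.37), and Socs1 at 7.83 and 7.26 (-0.57).

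Housekeeping functions stayed close to 0. The 12 measured housekeeping genes ranged from -0.19 to 0.13 with a median of 0.00, and the 19 respiratory chain genes from -0.09 to 0.13 with a median of 0.02. No member of the lists of lysosomal enzymes, sterol synthesis, glycolysis and hypoxia, NRF2 targets or the unfolded protein response was past 2-fold. The 17 measured macrophage identity genes had a median level of 13.2 on both arrays and no member past 2-fold. Among markers of other cells, 9 of 11 neutrophil, 6 of 11 T and NK cell, 6 of 10 B cell and 7 of 11 dendritic cell markers exceeded the array median on either array of the pair. Summed over the list as linear values, neutrophil markers were at 8281 after a first and 9678 after a second MDP, T and NK cell markers at 3171 and 3291, B cell markers at 7936 and 7606, and dendritic cell markers at 5129 and 8410. The last sum was moved mostly by Bst2, also an interferon-stimulated gene, at 11.83 and 12.74. Of these 4 lists Ighm was the member past 2-fold, while the B cell receptor gene Cd79b was at 7.25 and 7.66 (0.41) and Cd22 at 7.94 and 8.18 (0.24). The part of other cells in the results was not tested.

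**Figure D5:**
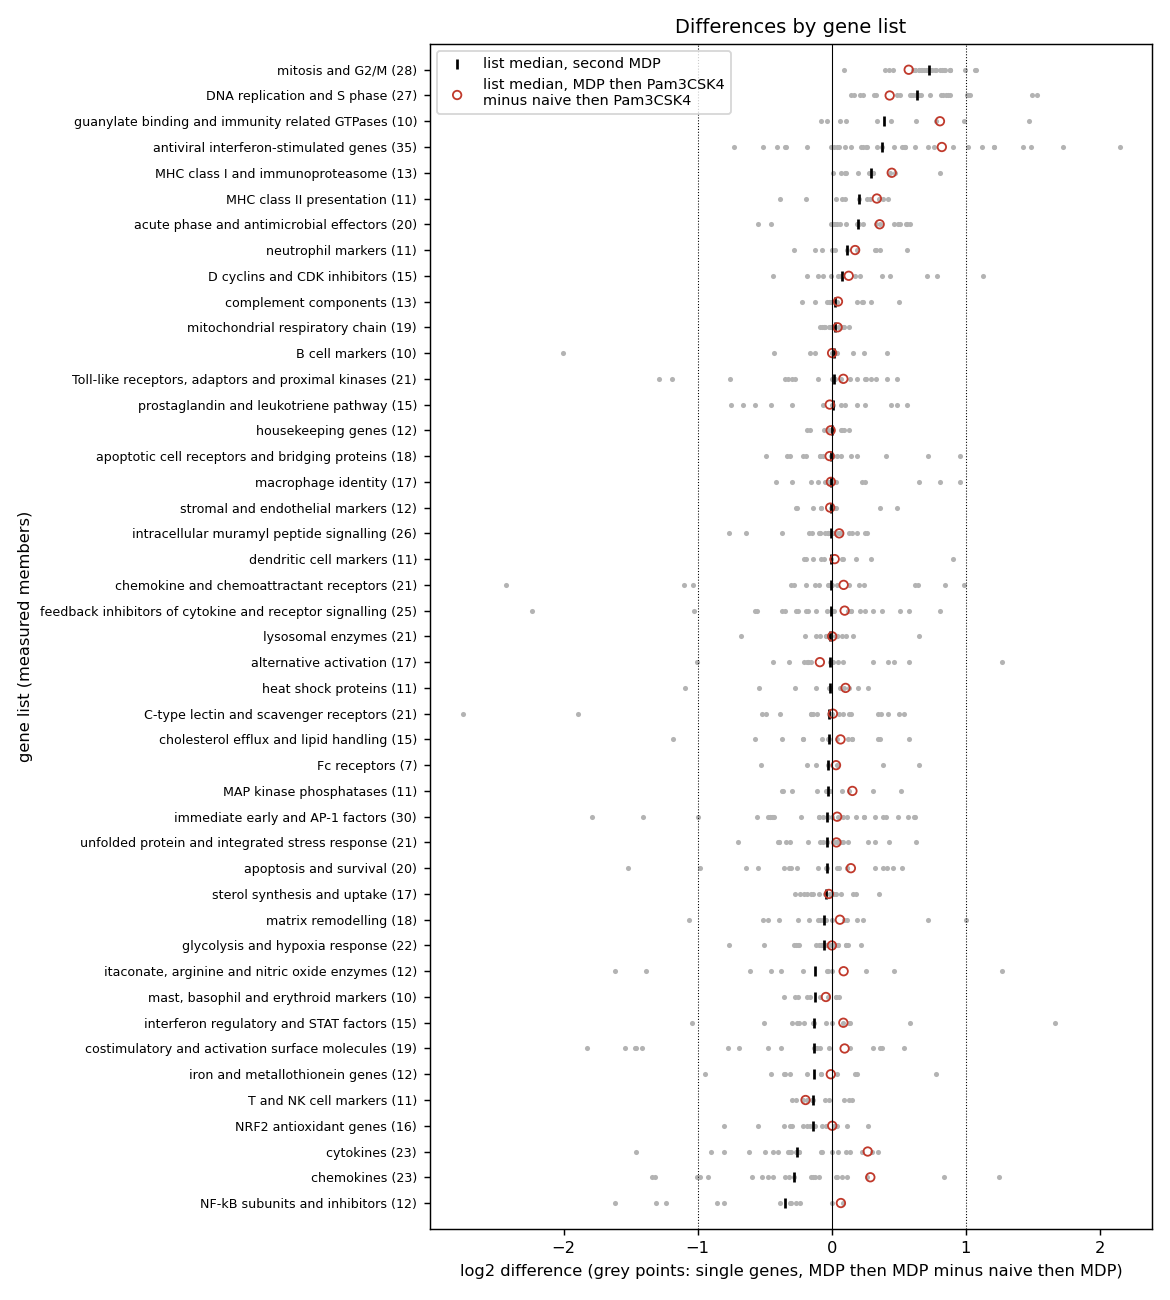
Log2 differences of the measured members (grey points) of 45 gene lists, with list medians for the second MDP (black marks) and for MDP-pretreated against naive cells given Pam3CSK4 (red circles), 1 array a condition. Mitosis and S phase lists lie highest at 0.72 and 0.63, the list of NF-kB subunits and inhibitors lowest at -0.35, and most other lists within 0.20 of 0.

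Probe sets of a gene mostly pointed the same way. More than 1 probe set exceeded the array median in 26 of the lower genes, and in all 26 these had the same sign, with every probe set past 2-fold in 7. Of the higher genes 24 had several, of which 22 agreed in sign and 12 were past 2-fold on every probe set. These counts include the probe set that put the gene past 2-fold, and the brightness filter reads the same 2 arrays. Part of the agreement is therefore set by the choice of genes. Genes lower after a second MDP were all bright enough on one of the 2 arrays to exceed its median, and 69 of the 70 higher genes were. The exception was Esco2, at 4.05 and 5.32, for which no fold is given.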

How the data were processed

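The deposited values are log2 expression per probe set, which the authors made with RMA in affy, as the submitters' processing notes name them. Versions and the set of arrays normalized together are not given in the sources used here. Normalization of that kind sets arrays to a common distribution, so a change shared by most genes would not be seen. Of 45101 probe sets 64 were controls, 34945 had 1 symbol in the platform annotation, 932 had several and 9160 had none, and 34741 of those with 1 symbol had an identifier in the RefSeq gene table. A gene was read from whichever of its single-symbol probe sets was brightest on average over the 7 arrays.

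Differences were taken between single arrays, with no test. The count of genes past 2-fold, the 45 gene lists (798 members, 721 measured) and the alternatives were chosen with earlier results of these data known. Named genes are the 20 highest and 20 lowest, up to 4 members per list, a fixed set of activation genes, genes set by their level over unstimulated cells and genes opposite in the 2 pairs. Dhx58, Herc6, Oasl2, Zbp1, Prim1, Sod2, Cenpk, Pde4b and Esco2 lie outside that rule and were chosen after their values were seen. Alternatives were centring, cyclic loess (span 0.7, 3 iterations), probe set choice, filters on dim genes, 32 added to linear values, and thresholds. The calculation was tested on simulated data whose spread came from the difference between the Pam3CSK4-pretreated arrays given either ligand. Those arrays are not replicates of each other or of the compared pair, so the simulation does not measure the spread between cultures. Python 3.11.15, numpy 2.4.6, pandas 2.3.3, scipy 1.17.1, matplotlib 3.10.9, R 4.3.3 and limma 3.58.1 were used.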

Additional observations from a re-analysis of the deposited data

Results flagged for a closer look

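A pair of genes lay past 2-fold in opposite directions when MDP-pretreated and naive cells were compared with each second ligand. Ccrl2, a non-signalling receptor for the chemoattractant chemerin, was at -1.03 with MDP (9.03 naive, 7.998 pretreated) and at 1.23 with Pam3CSK4 (9.83 naive, 11.07 pretreated). With 32 added to the linear values the MDP side of Ccrl2 was at -0.95, short of 2-fold. Ch25h, which makes 25-hydroxycholesterol, was at -1.18 with MDP and at 1.22 with Pam3CSK4 (10.31 naive, 11.53 pretreated). These differences were not tested, since each condition has 1 array.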

How the results depend on the processing

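As reported, 70 genes were higher and 53 lower (56.9% of these higher). With probe sets averaged per gene 44 were higher and 34 lower, 43.2% of the higher genes were also higher with Pam3CSK4 and 0% of the lower genes also lower. With the higher array above its 75th percentile 40 were higher and 47 lower (46.0% higher), 28.7% of Pam3CSK4-induced genes were lower and 42.5% of the higher genes were also higher with Pam3CSK4. With 32 added to the linear values 37 were higher and 42 lower (46.8% higher), and that share was 45.9%. At 3-fold 8 were higher and 11 lower (42.1% higher), the shares of Pam3CSK4-induced and Pam3CSK4-lowered genes were 4.31% and 0.909%, and the shared share was 87.5%. At 1.5-fold the counts were 411 and 205 and the shares 44.0% and 43.6%. With genes chosen at 2-fold on Pam3CSK4, 11.6% of the induced genes were lower and 6.78% of the lowered genes higher. That last share was 6.67% with 32 added and 7.23% with the higher array above its 75th percentile, beside 10.9% as reported. Ncapd3 reversed to -0.10 without less specific probe sets, and no other gene named by the rule reversed under the settings tried. Of the genes named by the rule 19 left the threshold with averaged probe sets and 12 with 32 added. Genes named outside the rule are not in these counts. Centring and cyclic loess gave between 71 and 76 higher and between 50 and 57 lower genes. Of the 70 and 53 reported, centring on medians shared 70 and 50, centring on housekeeping genes 70 and 51, and cyclic loess 63 and 52. The interferon-stimulated median stayed between 0.34 and 0.39. No paired analysis was possible because each condition has 1 array, and the spread between cultures limits every value.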

Other observations

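Receptors and bridging proteins for apoptotic cells had no member past 2-fold among 18 measured. Mertk, the receptor kinase that takes up dying cells, was nearest at 9.89 in unstimulated cells, 8.71 after a first MDP and 9.67 after a second (0.96), and at 7.60 and 8.10 with Pam3CSK4 in naive and MDP-pretreated cells. Pparg, a nuclear receptor of lipid handling, was at 9.08, 8.23 and 8.81 (0.58), and Dusp6, a phosphatase of the ERK kinases, at 12.10, 11.47 and 11.99 (0.52). All 3 genes were lower on the first-MDP array than on the unstimulated and second-MDP arrays.

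Acute phase and antimicrobial genes lay above 0 in 17 of 20 measured members without passing 2-fold, with a median of 0.19. Saa3, a serum amyloid, was at 6.78 unstimulated, 9.40 after a first MDP and 9.98 after a second (0.58), and Lcn2, which binds bacterial iron carriers, at 7.83, 7.50 and 8.01 (0.51). The complement factor gene Cfb was at 5.20 (under the array median), 5.58 and 5.81 (0.23), and at 6.56 and 8.19 (1.63) with Pam3CSK4 in naive and MDP-pretreated cells.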
